A study of Vitis vinifera with 24 samples.

Results

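The 7 genes described here encode glutathione S-transferases (GSTs) of the grape berry, 5 of the tau class, 1 of the phi class and 1 of the zeta class. They were taken from the 26740 gene IDs with a value in either year because the study lists them as the GST genes whose transcripts differed between nitrogen treatments in 2013. That choice used measured values, so the nitrogen differences of 2013 are given below as a description without a test. All 7 genes were present in both years and passed the expression filter of a mean of at least 0.5 RPKM (reads scaled to gene length and library size) over the 12 libraries of a year. Whole Sauvignon blanc berries were sampled at a Bordeaux vineyard from vines given 100 U of nitrogen per hectare on the soil (soil N100, applied at bud break and at flowering) and from control vines without this addition. Sampling took place 35 days (v + 35) and 28 days (v + 28) after mid-veraison, the onset of berry ripening, in 2014 and in 2013. Each of the 8 groups holds 3 libraries, 24 in all, which the study calls biological replicates. Clone and rootstock were not the same in both years, so season and plant material cannot be told apart. Whole berries hold flesh, skin and seed, and in such samples fewer cells of a type and less RNA per cell cannot be told apart.

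GSTs are soluble enzymes that join the sulfur of the tripeptide glutathione to reactive carbon atoms of other molecules, and the conjugates are moved into the vacuole by ABC transporters. The tau class is the large plant class and the phi class is also typical of plants; both are known for the detoxification of herbicides and products of lipid oxidation. The zeta class is shared with animals and fungi, where it acts as maleylacetoacetate isomerase in the breakdown of tyrosine. In Sauvignon blanc the family has been studied because glutathione bound to trans-2-hexenal gives rise to a precursor of the grapefruit-scented thiol 3-sulfanylhexan-1-ol. The study names each gene after its closest Arabidopsis relative, and these names are kept here. They are GSTU7-like (*VIT_06s0004g05680*), GSTU8-like (*VIT_16s0039g01070*), GSTU10-like (*VIT_01s0026g02400*), GSTF13-like (*VIT_07s0104g01800*), GSTZ2-like (*VIT_12s0035g02100*) and the 2 GSTU25-like genes *VIT_19s0015g02690* and *VIT_19s0015g02680*. In Arabidopsis GSTU25 is known for conjugating the explosive trinitrotoluene. By their IDs the GSTU25-like genes lie on chromosome 19 and the others on chromosomes 6, 16, 1, 7 and 12, in the order named above.

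Between 48.7 and 80.0 M reads fell in listed genes per library of 2014, and between 29.6 and 63.9 M per library of 2013. Replicate 1 of the control at (v + 35) in 2014 stood apart. In this library 209 of 17171 genes were more than 3 times above both other replicates, against 0 to 8 genes in each of the other 11 libraries of 2014 and 0 to 26 in those of 2013. GSTU8-like was among the 209, and values of the 7 genes whose direction or call this library changed are given below without it. The count was chosen after the data had been seen. Ripe-berry genes of the osmotin, thaumatin and chitinase families (11 of 11 detected) summed to between 3609 and 8889 RPKM per library. Seed genes encoding oleosins and LEA proteins (12 of 12 detected) summed to between 265 and 766 RPKM, so seed transcripts were detected in all groups. Both lists come from the tables of the study, which selected their genes on these samples.

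GSTU7-like was the most abundant of the 7 genes in most libraries. Its median rank among all genes of a library was 2119 in 2014 (range 1372 to 3199) and 2446 in 2013 (range 1170 to 3566), with a median level of 53.3 RPKM in 2014 and 46.4 RPKM in 2013. *VIT_19s0015g02690* came next in 2014 with a median rank of 2242, against a median rank of 3830 in 2013. GSTU7-like exceeded it in 8 of 12 libraries of 2014 and in 11 of 12 of 2013, so this pair was not separated in every library. *VIT_19s0015g02680* had a median rank of 5630 in 2014 and 3542 in 2013. It lay below *VIT_19s0015g02690* in all 12 libraries of 2014 but in 7 of 12 of 2013, where the order of the neighbouring genes was therefore open.

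The other 4 genes were lower, with the single exception that GSTU8-like exceeded *VIT_19s0015g02680* in the library that stood apart. GSTU8-like had a median rank of 8835 in 2014 and 10600 in 2013, and GSTZ2-like a median rank of 11793 in 2014 and 11740 in 2013. GSTU8-like exceeded GSTZ2-like in 12 of 12 libraries of 2014 and in 7 of 12 of 2013. GSTF13-like and GSTU10-like were the least abundant, with median ranks of 16829 and 15273 in 2014 and of 15423 and 16506 in 2013. Their order was not fixed, since GSTF13-like exceeded GSTU10-like in 3 of 12 libraries of 2014 and in 6 of 12 of 2013. The lowest value was that of GSTU10-like in control replicate 1 at (v + 28) in 2014, with 4 reads or 0.0781 RPKM (exact Poisson 95% interval 0.0213 to 0.2 RPKM, which covers counting error only). Together the 7 genes summed to between 102 and 188 RPKM per library of 2014 and between 81.3 and 216 RPKM per library of 2013. The sum of 188 RPKM was that of the library that stood apart, and the next highest of 2014 was 167 RPKM.

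**Figure D1:**
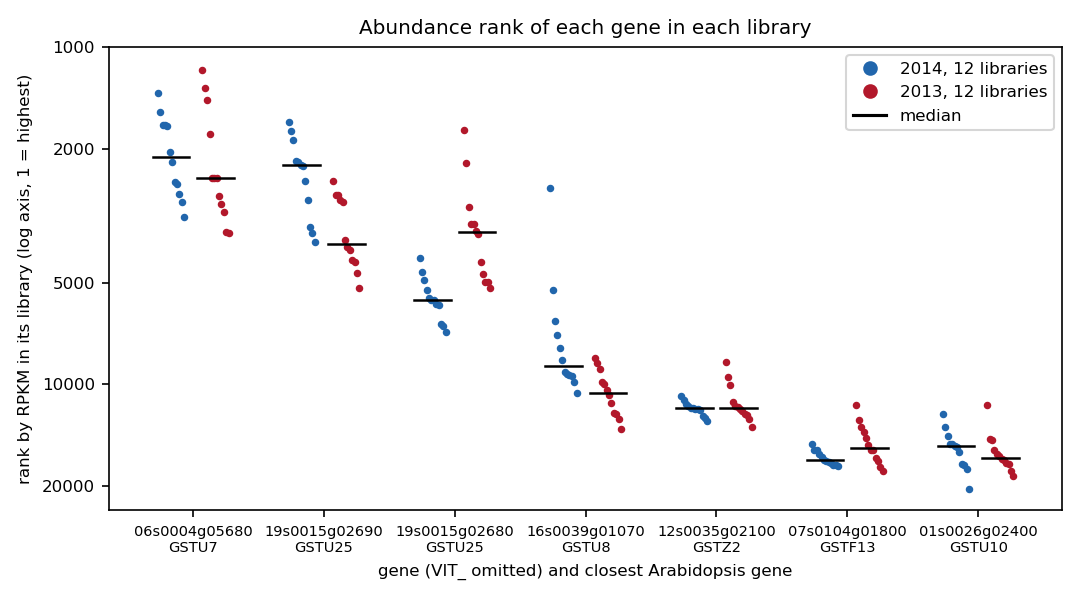
Abundance rank of each GST gene in each library (y axis, log scale, rank 1 is the gene with the highest RPKM; x axis, genes; blue points, 12 libraries of 2014; red points, 12 libraries of 2013; black bar, median). The median ranks of *VIT_19s0015g02690* and *VIT_19s0015g02680* were 2242 and 5630 in 2014 and 3830 and 3542 in 2013, far apart in 2014 and close together in 2013.

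The change over the last week of ripening was taken as the log2 fold change (LFC) of (v + 35) over (v + 28) in a fit of log2(RPKM + 0.5) with limma, averaged over both treatments. The scale understates the fold of lowly expressed genes. Genes with an LFC of at least 0.6 in size and a p no higher than 0.05 after Benjamini-Hochberg adjustment over all genes tested were called. In 2014 1 of the 7 GST genes was called, GSTU10-like, which rose, beside 3.38% of all 17171 genes (1.09% higher and 2.28% lower). In 2013 2 of the 7 were called, GSTF13-like, which fell, and GSTU8-like, which rose, beside 8.70% of all 17298 genes (4.14% higher and 4.56% lower). No gene was called in both years. The average over both treatments does not contain the nitrogen differences of 2013 that chose the genes, but it shares their libraries and spread. Choosing on nitrogen favours a small spread, so p-values of 2013, and of the difference between years below, may be too low. The median LFC of the 7 genes was -0.13 in 2014 and -0.07 in 2013, against -0.02 and -0.08 over all genes in the same years. Rescaling by median ratios moved the calls over all genes in 2013 to 950 higher and 533 lower, against 716 higher and 789 lower without it. The calls of the 3 GST genes were the same with and without this rescaling.

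Counted by overlap of the libraries, 0 of the 7 genes in soil N100 of 2014 lay higher and 1, GSTU7-like, lower at (v + 35) than in every library of (v + 28), beside 19.4% and 17.1% of all genes. In the control of 2014 GSTU10-like lay higher and GSTF13-like lower in this way, beside 8.42% and 14.4% of all genes. In soil N100 of 2013 it was GSTU8-like that lay higher and GSTF13-like lower, beside 11.9% and 24.8% of all genes. In the control of 2013 GSTZ2-like lay higher and both GSTU7-like and GSTF13-like lower, beside 15.2% and 31.7% of all genes. The libraries of 2013 chose the genes, so nothing is read from these counts of 2013.

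**Figure D2:**
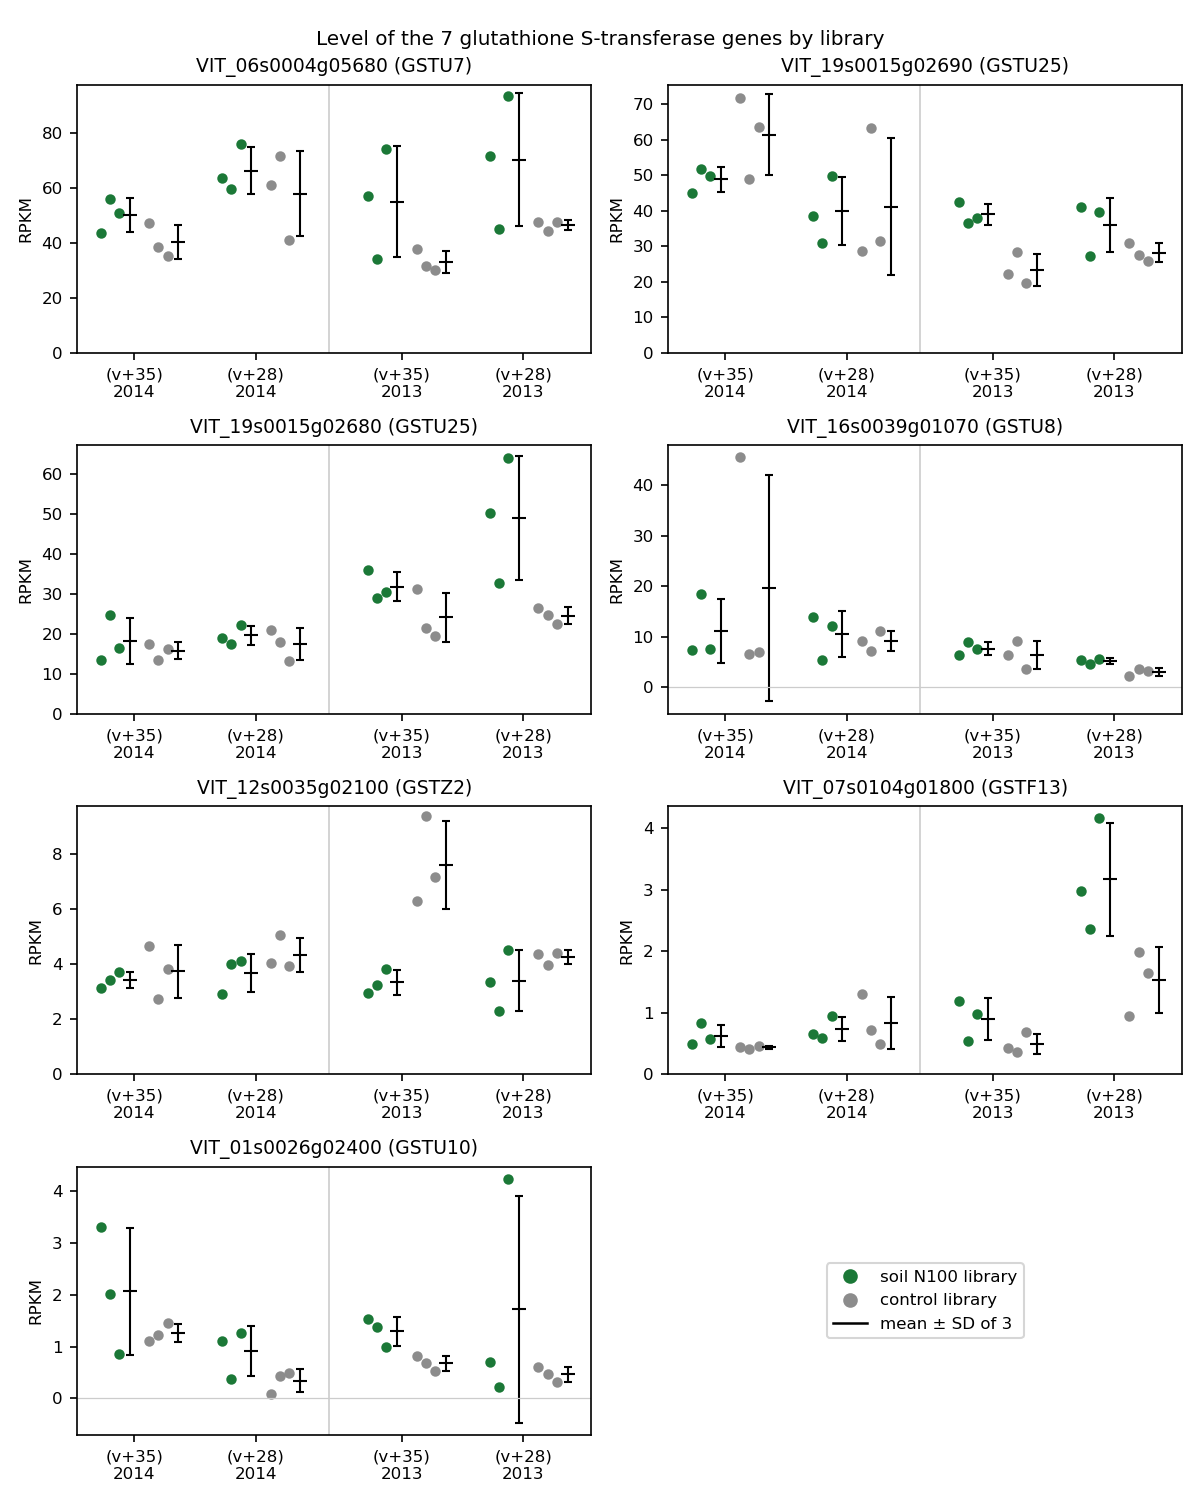
Level of the 7 GST genes in RPKM (y axes start at or below 0) by library, with soil N100 (green) left of control (grey) in each pair, (v + 35) left of (v + 28) and 2014 left of 2013. Points are libraries and bars the mean ± SD of 3. GSTF13-like was highest in soil N100 at (v + 28) in 2013 (2.36 to 4.17 RPKM), and GSTU8-like had its highest value in a single control library at (v + 35) in 2014 (45.5 RPKM).

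GSTF13-like, the phi-class gene, fell during late ripening of 2013. It stood at 1.19, 0.534 and 0.972 RPKM in soil N100 and at 0.43, 0.37 and 0.685 RPKM in the control at (v + 35), against 2.98, 2.36 and 4.17 RPKM in soil N100 and 0.942, 1.99 and 1.65 RPKM in the control at (v + 28). Within each treatment every library of (v + 35) lay below every library of (v + 28). Of all genes, 24.8% did so in soil N100 and 31.7% in the control. The choice of this gene by nitrogen at (v + 28) in 2013 favours this in soil N100, so nothing is read from this lack of overlap. The LFC over both treatments was -1.20 (SE 0.18, adjusted p = 0.000278 from limma), and the gene stayed called without any 1 of the 12 libraries, with LFCs between -1.31 and -1.09. At these levels the values rest on 12 to 201 reads per library. In 2014 it stood at 0.489, 0.826 and 0.566 RPKM in soil N100 and at 0.447, 0.411 and 0.458 RPKM in the control at (v + 35), against 0.654, 0.592 and 0.95 RPKM in soil N100 and 1.3, 0.724 and 0.486 RPKM in the control at (v + 28). Control libraries of the stages did not overlap, while those of soil N100 did, and the LFC of -0.30 (SE 0.14) did not pass the test (adjusted p = 0.143).

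GSTU8-like of the tau class rose during late ripening of 2013. Its levels at (v + 35) were 6.34, 8.93 and 7.63 RPKM in soil N100 and 6.44, 9.27 and 3.57 RPKM in the control, against 5.41, 4.54 and 5.71 RPKM in soil N100 and 2.22, 3.63 and 3.2 RPKM in the control at (v + 28). The stages did not overlap in soil N100, whereas in the control replicate 3 of (v + 35) lay within the range of (v + 28). The LFC over both treatments was 0.70 (SE 0.19, adjusted p = 0.01 from limma), and without control replicate 2 at (v + 35) it was 0.56 (adjusted p = 0.0186), below the threshold on the fold. In 2014 its levels at (v + 35) were 7.31, 18.5 and 7.57 RPKM in soil N100 and 45.5, 6.51 and 6.91 RPKM in the control, against 14, 5.48 and 12.2 RPKM in soil N100 and 9.27, 7.17 and 11.1 RPKM in the control at (v + 28). The value of 45.5 RPKM belongs to the library that stood apart and rests on 2499 reads. With all libraries the LFC of 2014 was 0.26 (SE 0.46, adjusted p = 0.691), and without this library it was -0.18 (adjusted p = 0.668), so its sign rested on 1 library.

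GSTU10-like of the tau class rose during late ripening of 2014. At (v + 35) the levels were 3.32, 2.02 and 0.854 RPKM in soil N100 and 1.1, 1.22 and 1.45 RPKM in the control, against 1.11, 0.364 and 1.27 RPKM in soil N100 and 0.0781, 0.438 and 0.494 RPKM in the control at (v + 28). In the control the stages did not overlap, and in soil N100 replicate 3 of (v + 35) lay within the range of (v + 28). The LFC over both treatments was 0.95 (SE 0.26, adjusted p = 0.0254 from limma). This call was close to the threshold. It was lost without control replicate 1 (adjusted p = 0.065) or soil N100 replicate 2 at (v + 28) (adjusted p = 0.0605) and without control replicate 3 (adjusted p = 0.0613) or soil N100 replicate 2 at (v + 35) (adjusted p = 0.0584), with LFCs between 0.78 and 1.15 over all 12 omissions. In 2013 the levels at (v + 35) were 1.53, 1.37 and 0.985 RPKM in soil N100 and 0.821, 0.681 and 0.526 RPKM in the control, against 0.708, 0.213 and 4.24 RPKM in soil N100 and 0.606, 0.469 and 0.321 RPKM in the control at (v + 28). A single soil N100 library was thus the highest of the year. The LFC of 2013 was 0.22 (SE 0.35, adjusted p = 0.635), and without that library, replicate 3 of soil N100 at (v + 28), the gene was called (LFC 0.61, adjusted p = 0.00872). Without replicate 2 of the same group the LFC was -0.07 (adjusted p = 0.862), so neither the direction nor the call was settled in 2013.

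GSTZ2-like, the zeta-class gene, had an LFC of 0.38 in 2013 (SE 0.14, adjusted p = 0.0395 from limma), which was too small a fold to be called. Its levels at (v + 35) were 2.97, 3.24 and 3.85 RPKM in soil N100 and 6.31, 9.41 and 7.17 RPKM in the control, against 3.37, 2.32 and 4.53 RPKM in soil N100 and 4.39, 3.96 and 4.43 RPKM in the control at (v + 28). The 3 control libraries of (v + 35) were the highest of the year and did not overlap with any other group. GSTZ2-like was chosen by its nitrogen difference at this stage, which favours high values in these control libraries. Nothing is therefore read from their separation from any other group, and the share of all genes separated in this way was not counted. The seed genes were also high in these control libraries, but their list too was selected on nitrogen in these samples. Their summed level at (v + 35) in 2013 was 347 to 390 RPKM in soil N100 and 581 to 766 RPKM in the control, against 292 to 566 RPKM in soil N100 and 342 to 646 RPKM in the control at (v + 28), and the part of seed tissue in the level of GSTZ2-like was not tested. In 2014 GSTZ2-like stayed between 2.74 and 5.06 RPKM in all 12 libraries, with an LFC of -0.14 (SE 0.12, adjusted p = 0.397). Summed seed genes of 2014 were at 356 to 501 RPKM in soil N100 and 265 to 520 RPKM in the control at (v + 35), against 559 to 581 RPKM in soil N100 and 387 to 620 RPKM in the control at (v + 28).

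GSTU7-like had almost the same LFC in both years, -0.45 in 2014 (SE 0.13, adjusted p = 0.0324 from limma) and -0.42 in 2013 (SE 0.19, adjusted p = 0.0928). The value of 2014 was too small a fold to be called, and by the adjusted p alone GSTU7-like and GSTU10-like passed in 2014, beside 25.4% of all genes. In 2014 its levels at (v + 35) were 43.7, 55.9 and 50.8 RPKM in soil N100 and 47.2, 38.4 and 35.3 RPKM in the control, against 63.7, 59.6 and 76 RPKM in soil N100 and 61.2, 71.7 and 41.2 RPKM in the control at (v + 28). The stages did not overlap in soil N100. In 2013 its levels at (v + 35) were 57, 34.1 and 74.3 RPKM in soil N100 and 37.7, 31.6 and 30.3 RPKM in the control, against 71.9, 45.3 and 93.7 RPKM in soil N100 and 47.8, 44.5 and 47.6 RPKM in the control at (v + 28). Here the stages did not overlap in the control, as for 31.7% of all genes in that direction. The choice of GSTU7-like by nitrogen at (v + 35) favours this separation in the control, so nothing is read from it. The soil N100 libraries of 2013 varied more than those of the control at both stages.

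The GSTU25-like genes differed in their course. *VIT_19s0015g02690* stood in 2014 at 45, 51.8 and 49.7 RPKM in soil N100 and at 71.6, 49 and 63.5 RPKM in the control at (v + 35), against 38.6, 31 and 49.9 RPKM in soil N100 and 28.6, 63.3 and 31.4 RPKM in the control at (v + 28). The libraries overlapped in both treatments. Its LFC of 0.48 (SE 0.19) did not pass the test (adjusted p = 0.0817 from limma), but without control replicate 2 at (v + 28), the library at 63.3 RPKM, it was called (LFC 0.66, adjusted p = 0.0105). In 2013 its LFC was -0.07 (SE 0.11, adjusted p = 0.643). That value turned to 0.02 with median ratios and to 0.03 with quantile normalization. *VIT_19s0015g02680* had LFCs of -0.13 in 2014 (SE 0.15, adjusted p = 0.533) and -0.31 in 2013 (SE 0.15, adjusted p = 0.121). In 2014 its levels were 13.5, 24.6 and 16.4 RPKM in soil N100 and 17.5, 13.4 and 16.2 RPKM in the control at (v + 35), against 19, 17.4 and 22.2 RPKM in soil N100 and 21, 18 and 13.2 RPKM in the control at (v + 28). The stages overlapped in both treatments of 2014. In 2013 its levels were 35.9, 28.9 and 30.4 RPKM in soil N100 and 31.1, 21.5 and 19.5 RPKM in the control at (v + 35), against 50.2, 32.7 and 63.8 RPKM in soil N100 and 26.4, 24.7 and 22.3 RPKM in the control at (v + 28). The stages overlapped here too, and the highest values of the gene were soil N100 libraries of (v + 28).

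Within a single treatment of 2014, 0 of the 7 GST genes were called in soil N100, beside 0.734% of all genes, and 0 in the control, beside 2.08%. Before adjustment, p was no higher than 0.05 for 0 of the 7 in soil N100, beside 3604 of all 17171 genes, and for 4 in the control, beside 5138. The LFCs in the control were 1.10 for GSTU10-like (SE 0.37, adjusted p = 0.0918 from limma) and 0.65 for *VIT_19s0015g02690* (SE 0.27, adjusted p = 0.141), against 0.80 (adjusted p = 0.244) and 0.31 (adjusted p = 0.522) in soil N100. GSTU7-like was called in the control only without replicate 3 of (v + 28) (LFC -0.72, adjusted p = 0.0321), and *VIT_19s0015g02690* only without replicate 2 of the same group (LFC 1.00, adjusted p = 0.0412). Without the library that stood apart, the LFC of GSTU8-like in the control was -0.40 in place of 0.49, and 181 genes were called in the control over all genes in place of 358. The difference of the ripening change between treatments, soil N100 minus control, lay between -0.45 and 0.34 for the 7 genes and was called for 0 of them and for 0 of all 17171 genes, 0%, (0 of the 7 and 156 of all genes had an unadjusted p no higher than 0.05). In limma-voom on recovered reads it was also called for 0 of all genes. The lowest value, -0.45, was that of GSTU8-like and was 0.45 without the library that stood apart, while that of *VIT_19s0015g02680* was -0.01 with all libraries and 0.07 without it.

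The single-treatment changes of 2013 share libraries with the nitrogen comparison that chose the genes, so they are given without p-values. Nothing is read from their calls (1 of 7 in soil N100 beside 8.30% of all genes, and 3 of 7 in the control beside 8.46%). GSTF13-like had an LFC of -1.39 (SE 0.25) in soil N100, which is a fold of 0.382 in RPKM + 0.5. In the control this fold of (v + 35) over (v + 28) was 0.499 (SE of the LFC 0.25). The mean levels themselves were 0.899 RPKM at (v + 35) and 3.17 RPKM at (v + 28) in soil N100. In the control they were 0.495 RPKM at (v + 35) and 1.53 RPKM at (v + 28). GSTZ2-like had LFCs of 0.01 in soil N100 and 0.76 in the control (SE 0.19 each), and GSTU8-like of 0.50 in soil N100 and 0.91 in the control (SE 0.27 each). For *VIT_19s0015g02680* the LFCs were -0.57 in soil N100 and -0.05 in the control (SE 0.22 each), and for *VIT_19s0015g02690* 0.13 in soil N100 and -0.28 in the control (SE 0.16 each).

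**Figure D3:**
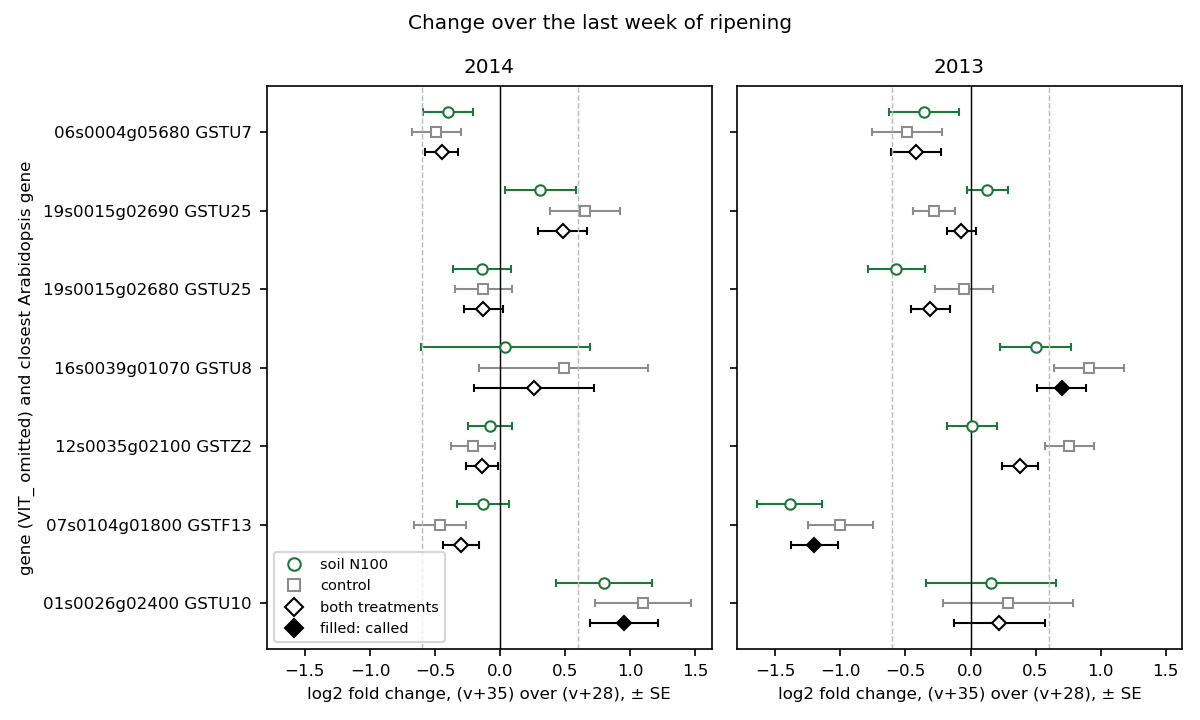
Change over the last week of ripening, as the log2 fold change of (v + 35) over (v + 28) ± SE (x axis) of each GST gene (y axis) in soil N100 (green circles), control (grey squares) and both treatments together (black diamonds), in 2014 (left) and 2013 (right). Dashed lines mark the fold threshold of 0.6 and filled symbols are called. The single treatments of 2013 are drawn open whatever their call, because they share libraries with the choice of the genes. GSTF13-like was at -0.30 in 2014 and -1.20 in 2013, and GSTU10-like at 0.95 in 2014 and 0.22 in 2013.

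The ripening changes of the years were compared by subtracting that of 2013 from that of 2014. 1 of the 7 GST genes was called, GSTF13-like, beside 7.90% of the 16899 genes tested in both years. These calls over all genes were 566 higher and 769 lower, or 350 higher and 979 lower with median ratios. Its difference was 0.90 (SE 0.23, adjusted p = 0.00545 from limma), with LFCs of -0.30 in 2014 and -1.20 in 2013, and it stayed called without any 1 of the 24 libraries. GSTZ2-like had a difference of -0.53 (SE 0.18, adjusted p = 0.0327), below the fold required for a call. By the adjusted p alone these 2 of the 7 genes passed, beside 31.6% of all genes. GSTZ2-like was called without replicate 1 of the control at (v + 35) in 2014 (-0.60, adjusted p = 0.0162), the library that stood apart, and without replicate 3 of soil N100 at (v + 28) in 2013 (-0.63, adjusted p = 0.00956). For *VIT_19s0015g02690* the difference was 0.55 (SE 0.22, adjusted p = 0.0656). It was called without any of 5 libraries, namely control replicate 2 at (v + 28) of 2014 (0.73, adjusted p = 0.00347), soil N100 replicate 3 at (v + 28) of 2014 (0.64, adjusted p = 0.0444), control replicate 2 at (v + 35) of 2014 (0.63, adjusted p = 0.0377), soil N100 replicate 2 at (v + 28) of 2013 (0.64, adjusted p = 0.0288) and control replicate 2 at (v + 35) of 2013 (0.63, adjusted p = 0.0405). The difference of GSTU10-like, 0.73 (SE 0.44), did not pass (adjusted p = 0.207) except without replicate 2 of soil N100 at (v + 28) in 2013 (1.02, adjusted p = 0.0446). GSTU7-like had a difference of -0.02 (SE 0.23, adjusted p = 0.946), and GSTU8-like one of -0.44 (SE 0.50, adjusted p = 0.524), which was -0.89 without the library that stood apart.

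Levels were also set side by side between the years, without a test, since each year is a separate table and its own plant material. *VIT_19s0015g02680* was lower in 2014 than in 2013 in every pair of groups, and the libraries of the years did not overlap in any of them. In soil N100 it averaged 18.2 ± 5.78 RPKM in 2014 and 31.8 ± 3.69 RPKM in 2013 at (v + 35), and 19.5 ± 2.43 RPKM in 2014 and 48.9 ± 15.6 RPKM in 2013 at (v + 28) (SD, n = 3 each). In the control the averages were 15.7 ± 2.14 RPKM in 2014 and 24 ± 6.2 RPKM in 2013 at (v + 35), and 17.4 ± 3.95 RPKM in 2014 and 24.5 ± 2.03 RPKM in 2013 at (v + 28). The log2 ratio of 2014 over 2013 was thus between -1.33 and -0.49. Of all genes, 6.96% were lower and 4.96% higher in 2014 in this way. The levels of soil N100 at (v + 28) in 2013 took part in the choice of this gene.

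*VIT_19s0015g02690* went the other way at (v + 35). It averaged 48.8 ± 3.49 RPKM in 2014 and 39 ± 3.04 RPKM in 2013 in soil N100, and 61.4 ± 11.5 RPKM in 2014 and 23.4 ± 4.57 RPKM in 2013 in the control (SD, n = 3 each), without overlap between the years, as was the case for 27.4% of all genes in soil N100 and 18.7% in the control. The 2013 levels at (v + 35) took part in the choice of this gene, so nothing is read from the lack of overlap. At (v + 28) the years overlapped. The ratio of *VIT_19s0015g02690* to *VIT_19s0015g02680* ranged from 1.36 to 4.08 over the 12 libraries of 2014 (median 2.71) and from 0.619 to 1.32 over those of 2013 (median 1.14), and the years did not overlap. How many other gene pairs separate the years in this way was not counted, and values of 2013 took part in the choice of both genes. In 2014 the ratio was highest in the control at (v + 35) (3.66 to 4.08). In 2013 it was below 1 in all soil N100 libraries at (v + 28) (0.619 to 0.833), and between 1.12 and 1.17 in the control at that stage, a difference that the choice of *VIT_19s0015g02680* by nitrogen at this stage favours. Only uniquely aligned reads were counted and the sequences of the pair were not analysed here, so a share of reads common to both genes cannot be given.

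**Figure D4:**
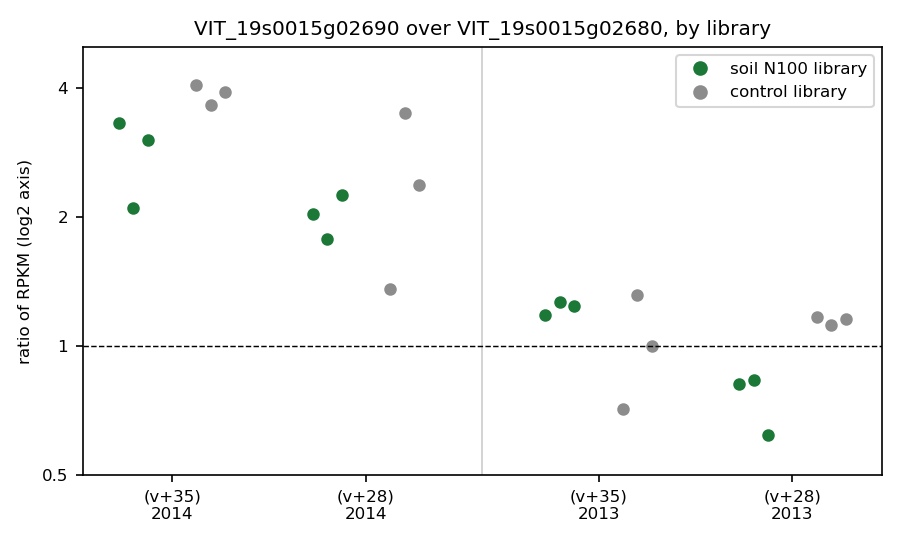
Ratio of the RPKM of *VIT_19s0015g02690* to that of *VIT_19s0015g02680* in each library (y axis, log2 scale; dashed line, equal levels), with soil N100 (green) left of control (grey), (v + 35) left of (v + 28) and 2014 left of 2013. All 12 libraries of 2014 lay between 1.36 and 4.08, above the 12 of 2013, which lay between 0.619 and 1.32. Other gene pairs were not compared in this way.

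The other members differed less evenly between the years. The separated groups named next all took part, by their values of 2013, in the choice of the gene, and nothing is read from them. GSTU8-like averaged 9.18 ± 1.97 RPKM in 2014 and 3.02 ± 0.725 RPKM in 2013 in the control at (v + 28) (SD, n = 3 each), without overlap, as did 16.5% of all genes in that direction. GSTF13-like averaged 0.732 ± 0.192 RPKM in 2014 and 3.17 ± 0.921 RPKM in 2013 in soil N100 at (v + 28), also without overlap, as did 24.6% of all genes in that direction. GSTZ2-like averaged 3.75 ± 0.966 RPKM in 2014 and 7.63 ± 1.6 RPKM in 2013 in the control at (v + 35), where 28.4% of all genes were lower in 2014 without overlap. GSTU10-like averaged 1.26 ± 0.175 RPKM in 2014 and 0.676 ± 0.148 RPKM in 2013 in the same group, again without overlap, as did 18.7% of all genes in that direction. GSTU7-like overlapped between the years in all 4 pairs of groups, with log2 ratios of 2014 over 2013 between -0.14 and 0.31. None of the 7 genes separated all 12 libraries of 2014 from all 12 of 2013, as 1.83% of all genes did with higher and 1.50% with lower levels in 2014.

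The nitrogen difference is given beside these results as the LFC of soil N100 over control. In 2014, in libraries that the choice did not use, 0 of the 7 genes were called at (v + 35), beside 0.00582% of all genes, and 0 at (v + 28), beside 0%. Before adjustment, p was no higher than 0.05 for 0 of the 7 and 652 of all genes at (v + 35) and for 0 of the 7 and 583 of all genes at (v + 28), and limma-voom on recovered reads called 0 of all genes at both stages. The highest LFC of 2014 was that of GSTU10-like with 0.43 at (v + 35) and 0.73 at (v + 28) (SE 0.37 each). Without 1 library it lay between 0.08 (without soil N100 replicate 1) and 0.83 (without soil N100 replicate 3) at (v + 35), and between 0.48 (without control replicate 1) and 1.05 (without soil N100 replicate 2) at (v + 28). GSTF13-like at (v + 35) was the only case of 2014 in which the treatments did not overlap, with soil N100 higher, as in 2.70% of all genes (4.33% were lower there, and at (v + 28) 1.76% were higher and 7.08% lower). The LFC of GSTU8-like at (v + 35) was -0.33 with all libraries and 0.56 without the library that stood apart, and that of GSTZ2-like was -0.09 with all and 0.06 without it.

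In 2013 6 of the 7 genes had a positive LFC at both stages and GSTZ2-like a negative one, as the choice of the genes by this contrast favours. At the stage where the study lists each gene, the smallest in size was that of GSTU10-like at (v + 35), 0.61 (SE 0.50), and the values at the stage that did not count ranged from -0.32 for GSTZ2-like to 0.74 for GSTU10-like. The value of 0.74 rests on the library at 4.24 RPKM and was -0.05 without it, and that of GSTU8-like at (v + 35), 0.31, was -0.03 without control replicate 3. GST genes just outside the threshold were not analysed here. The soil N100 libraries of (v + 28) in 2013 were also deeper (44.2 to 53.9 M reads in genes) than those of the control (30.3 to 35.6 M), and the part of depth was not tested.

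**Figure D5:**
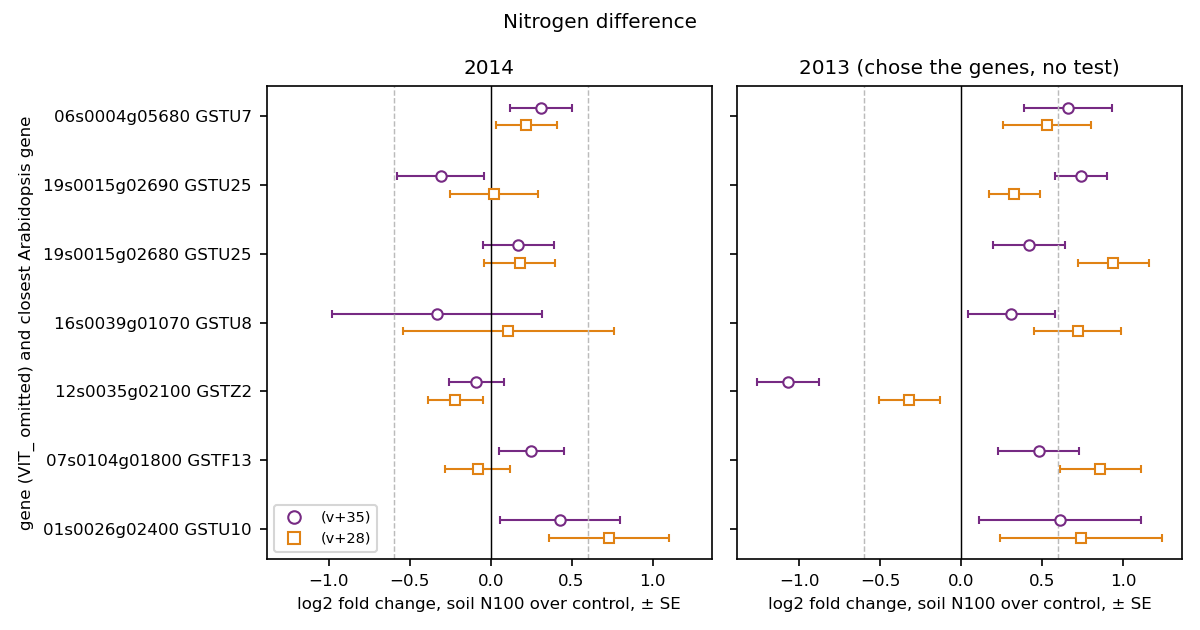
Log2 fold change of soil N100 over control ± SE (x axis) of each GST gene (y axis) at (v + 35) (purple circles) and (v + 28) (orange squares), in 2014 (left, 0 of 7 genes called at either stage) and in 2013 (right, the contrast that chose the genes, not tested). Dashed lines mark the fold threshold of 0.6. GSTZ2-like was at -0.09 and -0.22 in 2014 and at -1.07 and -0.32 in 2013, for (v + 35) and (v + 28) in this order.

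The patterns of the genes over the 24 libraries were compared after centring each year on its mean, by Pearson's r and Spearman's rho, as a description, since the libraries share groups and each library's depth. Among the members GSTU7-like was most like *VIT_19s0015g02680* (r = 0.78, rho = 0.74) and GSTF13-like (r = 0.73, rho = 0.69). Over 2014 alone r was 0.72 and 0.74, and over 2013 alone 0.81 and 0.75. Choosing members as higher under nitrogen in 2013 favours positive values between them in that year. The neighbouring GSTU25-like genes had r = 0.41 (rho = 0.35), with 0.06 over the 12 libraries of 2014 and 0.69 over those of 2013. GSTZ2-like had negative r values with GSTF13-like (r = -0.42, rho = -0.25) and with *VIT_19s0015g02680* (r = -0.30, rho = -0.17). By year these r values were 0.25 and 0.27 in 2014 and -0.54 and -0.44 in 2013. The choice of GSTZ2-like as lower and of the others as higher under nitrogen in 2013 favours negative values in that year.

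Of all 16899 genes compared, the gene most like GSTU7-like was the mitochondrial ribosomal protein gene RPL2 (*VIT_01s0026g00290*, r = 0.95, rho = 0.93), at 7.17 to 49.6 RPKM, followed by *VIT_17s0000g03280* (r = 0.94, rho = 0.94), an abundant transcript at 859 to 1742 RPKM. GSTZ2-like was most like RD22 (*VIT_11s0016g03950*, r = 0.92, rho = 0.85), whose Arabidopsis namesake is a gene induced by dehydration, and *VIT_13s0019g05100* (r = 0.88, rho = 0.81). GSTF13-like was most like a gibberellin-regulated family protein gene (*VIT_14s0066g01790*, r = 0.92, rho = 0.95), at 0.273 to 5.37 RPKM, and *VIT_08s0007g01530* (r = 0.92, rho = 0.88). GSTU8-like was most like *VIT_02s0087g00750* (r = 0.91, rho = 0.95), which stood at 79.8 RPKM in the library that stood apart, against 1.14 and 2.79 RPKM in the other control libraries of (v + 35) in 2014, and *VIT_03s0017g00650* (r = 0.90, rho = 0.85). The genes most like the other members were *VIT_18s0001g04760* (r = 0.85, rho = 0.88) and *VIT_19s0015g00550* (r = 0.83, rho = 0.83) for *VIT_19s0015g02690*, *VIT_08s0040g00480* (r = 0.94, rho = 0.93) and *VIT_14s0030g01220* (r = 0.89, rho = 0.83) for *VIT_19s0015g02680*, and *VIT_00s0187g00040* (r = 0.80, rho = 0.76) and *VIT_00s0187g00010* (r = 0.80, rho = 0.80) for GSTU10-like. Genes named by ID alone have no description in the sources used here.

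Around the GSTU25-like pair, which are adjacent in the list of IDs, 9 of the 10 other IDs up to 5 places away averaged between 0.00451 and 1.72 RPKM over the 24 libraries, whereas the pair averaged 39.7 RPKM (*VIT_19s0015g02690*) and 25 RPKM (*VIT_19s0015g02680*). The remaining ID, *VIT_19s0015g02590*, averaged 59.4 RPKM. GSTU10-like, among the least abundant members, was followed by *VIT_01s0026g02410* at 121 RPKM, and GSTZ2-like by *VIT_12s0035g02110* at 122 RPKM. Also near GSTU10-like was *VIT_01s0026g02340* at 21.1 RPKM. GSTZ2-like also had *VIT_12s0035g02180* at 211 RPKM, *VIT_12s0035g02080* at 30.4 RPKM and *VIT_12s0035g02070* at 23.3 RPKM nearby. GSTU7-like had *VIT_06s0004g05730* nearby at 69.4 RPKM and *VIT_06s0004g05650* at 117 RPKM, and GSTU8-like had *VIT_16s0039g00990* at 13.4 RPKM and *VIT_16s0039g01020* at 22.1 RPKM. GSTF13-like was preceded by *VIT_07s0104g01780* at 23.3 RPKM and *VIT_07s0104g01790* at 29.8 RPKM. The 3 IDs listed after GSTF13-like averaged between 0.0076 and 0.0403 RPKM. Some other neighbours had levels near those of the members. Further GST genes that the study mentions were not analysed here.

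A glutathione list of 12 further genes, of which not all products use glutathione, was taken from the descriptions in the tables of the study. The study had selected these genes on nitrogen in the same libraries. They encode transporters of conjugates and peptides, sulfate transporters, lactoylglutathione lyases (glyoxalase enzymes that use glutathione), a thioredoxin and an ascorbate peroxidase. Over both treatments 0 of 8 tested genes were called higher and 3 lower at (v + 35) than at (v + 28) in 2014, beside 1.09% and 2.28% of all genes, and 1 of 10 was called higher and 2 lower in 2013, beside 4.14% and 4.56%. By sign alone 3 of the 8 lay above 0 in 2014 and 3 of the 10 in 2013. The lactoylglutathione lyase gene *VIT_12s0035g00880* fell in both years, with LFCs of -0.99 in 2014 (SE 0.21, adjusted p = 0.00911 from limma) and -1.60 in 2013 (SE 0.23, adjusted p = 0.000244). The ABC transporter gene *VIT_16s0050g01620* also fell in both years, with LFCs of -1.24 in 2014 (SE 0.24, adjusted p = 0.00715) and -0.79 in 2013 (SE 0.17, adjusted p = 0.00373). The sulfate transporter gene SULTR3;5 (*VIT_11s0016g04160*) fell in 2014 (LFC -0.69, SE 0.20, adjusted p = 0.0318) and was below the required fold in 2013 (LFC -0.54, SE 0.15, adjusted p = 0.0126). The other lactoylglutathione lyase gene, *VIT_13s0158g00130*, rose in 2013 (LFC 0.65, SE 0.17, adjusted p = 0.0102) and had an LFC of 0.06 in 2014 (adjusted p = 0.834). The median LFC of the tested genes was -0.42 in 2014 and -0.28 in 2013, against -0.02 and -0.08 over all genes in the same years.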

How the data were processed

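RNA of whole berries was sequenced on an Illumina instrument with a kit that does not mark the strand. Per the labels and the methods of the study, the authors used CASAVA 1.8.2, TopHat2 2.0.10 and Bowtie2 2.1.0 on the 12X grapevine assembly, kept uniquely aligned reads and counted them per gene with HTSeq 0.5.4p3 and the CRIBI V1 annotation. They deposited RPKM values per library in a separate table for each year, without pooling replicates. RPKM is relative to each library's own total, so a few very abundant genes can shift all others. Whole reads could be recovered from the RPKM steps for 100.00% of genes in both years (tolerance 0.01 reads), which gave the depths. No value column was left out, and sequences of the genes were not analysed here.

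For each year, genes averaging 0.5 RPKM or more over its 12 libraries were fitted as log2(RPKM + 0.5) with limma 3.58.1 (R 4.3.3), with 4 group means per year and a trend in the moderation of variance, and Benjamini-Hochberg adjustment was made over all genes. RPKM called for limma in place of a count test. The ripening changes of the years were compared from their estimates and standard errors, with Satterthwaite degrees of freedom. Ranks, ratios and correlations were computed with Python 3.11.15, pandas 2.3.3 and scipy 1.17.1 and plotted with matplotlib 3.10.9. The fit was tested on simulated data. The text names the 7 genes, the 2 genes most like each by Pearson's r, listed neighbours averaging 10 RPKM or more, and genes of the glutathione list. The members and lists were chosen with earlier results of these data known. Alternatives were pseudocounts of 0.1 and 1, no filter or a filter at 2 RPKM, median-ratio or quantile scaling, no trend, a replicate block, the libraries of a comparison alone, limma-voom on the recovered reads, no threshold on the fold, and leaving out each library. The study sampled randomized blocks of vines and calls the libraries biological replicates, but the labels do not tie a library to a block, so the p-values measure the spread between these libraries.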

Additional observations from a re-analysis of the deposited data

Results flagged for a closer look

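The ripening change, as log2 of (v + 35) over (v + 28), differed between the years by an adjusted p of at most 0.05 for 2 of the 7 genes, beside 31.6% of all genes. For GSTF13-like the difference, 2014 minus 2013, was 0.90 (SE 0.23, adjusted p = 0.00545 from limma), from -0.30 (SE 0.14) in 2014 and -1.20 (SE 0.18) in 2013. For GSTZ2-like it was -0.53 (SE 0.18, adjusted p = 0.0327), from -0.14 (SE 0.12) in 2014 and 0.38 (SE 0.14) in 2013. The 12 seed genes all had differences below 0, with a median of -0.57 against 0.05 over all genes, and 4 of them were called, beside 7.90% of all genes. The seed genes were selected on nitrogen in the same libraries, and the share of all genes below 0 was not counted. Nothing is therefore read from these counts. The part of the seed genes in the value of GSTZ2-like was not tested.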

How the results depend on the processing

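With 3 libraries per group, the counts of called GST genes depended on single libraries. Leaving out each library in turn gave 0 to 2 genes for ripening over both treatments in 2014 (1 with all libraries), 1 to 3 in 2013 (2 with all), 0 to 1 for the control of 2014 (0 with all), and 1 to 3 for the difference between years (1 with all). For soil N100 of 2014, both nitrogen differences of 2014 and the difference between treatments of 2014 the count was 0 in each case. Counts from single treatments of 2013 use the libraries that chose the genes and say nothing of stability, and ranged from 0 to 3 in the control (3 with all) and from 1 to 2 in soil N100 (1 with all). A filter of a mean of at least 2 RPKM, which takes out GSTF13-like and GSTU10-like, left 0 genes for ripening over both treatments in 2014, 1 in 2013, 0 for soil N100 of 2013 and 0 for the difference between years. Without a threshold on the fold there were 2 genes for ripening over both treatments in 2014 and 2 for the difference between years. Limma-voom also gave 2 for the difference between years, by calling GSTZ2-like (-0.61, adjusted p = 0.0338).

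The replicate numbers were not taken as pairs. Deviations of same-numbered libraries of a treatment correlated at -0.41 to 0.04 in 2014 and at 0.03 to 0.28 in 2013. Of these pairs 0 of 6 and 3 of 6 were over 0.1. Control replicate 1 at (v + 28) of 2013 had 0.06 with replicate 1 and 0.162 with replicate 3 at (v + 35). The other (v + 28) libraries of 2013 correlated best with their own number within their treatment, so whether 2013 was paired is not settled. With the replicate number as a block, or a replicate block by treatment, 0 genes were called for ripening over both treatments in 2014, where GSTU10-like kept its LFC of 0.95, and the other calls over both treatments and between years were the same genes. For GSTU7-like, which stayed below the fold, the adjusted p from limma was 0.0549 with the block in 2014 and 0.000619 with the block by treatment in 2013. Scaling changed a direction in 2 cases with values near 0. The ripening LFC of *VIT_19s0015g02690* over both treatments in 2013 was 0.02 with median ratios and 0.03 with quantile normalization, against -0.07, and that of *VIT_19s0015g02680* in the control of 2013 was 0.04 and 0.06, against -0.05. Median ratios and quantile normalization each called 3 genes for nitrogen at (v + 28) in 2014 over all genes, and 0 of the 7. The cause of these changes was not tested.

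Leaving out 1 library changed the direction of 22 of 70 LFCs, all of which were uncalled with all libraries. Over both treatments the range was -0.18 to 0.50 for GSTU8-like in 2014 and -0.07 to 0.61 for GSTU10-like in 2013. In the control it was -0.31 to 0.02 for *VIT_19s0015g02680* and -0.40 to 0.95 for GSTU8-like in 2014, and -0.25 to 0.08 for *VIT_19s0015g02680* in 2013. In soil N100 it was -0.37 to 0.05 for *VIT_19s0015g02680* and -0.38 to 0.28 for GSTU8-like in 2014, and -0.05 to 0.24 for *VIT_19s0015g02690*, -0.20 to 0.21 for GSTZ2-like and -0.43 to 0.94 for GSTU10-like in 2013. For nitrogen in 2014 at (v + 35) it was -0.07 to 0.36 for *VIT_19s0015g02680*, -0.80 to 0.56 for GSTU8-like and -0.27 to 0.06 for GSTZ2-like, and at (v + 28) it was -0.19 to 0.38 for *VIT_19s0015g02690*, -0.13 to 0.51 for GSTU8-like and -0.28 to 0.15 for GSTF13-like. The difference between treatments in 2014 ranged from -0.08 to 0.32 for GSTU7-like, -0.24 to 0.18 for *VIT_19s0015g02680*, -0.91 to 0.45 for GSTU8-like, -0.05 to 0.28 for GSTZ2-like and -0.65 to 0.10 for GSTU10-like. The difference between years of GSTU7-like ranged from -0.18 to 0.12. Depth limits GSTF13-like and GSTU10-like most, with as few as 12 and 4 reads in a library.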
